A study of Mus musculus with 6 samples.

Results

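The 10 genes described here are the cyclin-dependent kinase (CDK) inhibitors of the Ink4 family (Cdkn2a, Cdkn2b, Cdkn2c and Cdkn2d) and of the Cip/Kip family (Cdkn1a and Cdkn1b), the retinoblastoma gene Rb1 with its relatives Rbl1 and Rbl2, and E2f1. They were taken as every probe set on the Affymetrix mouse expression array annotated to 1 of these symbols and to no other gene, which gave 19 probe sets of the 45037 on the arrays, for 10 of 18193 genes. A probe set is the group of short probes that reads a transcript, and its value is a log2 intensity, so that a difference of 1 is 2-fold. The study asked which genes differ between retinal ganglion cells (RGCs), the neurons that send axons from eye to brain, that project to the same side of the brain (ipsilateral) and those that cross the midline (contralateral).

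Both groups were RGCs of C57BL/6J mouse embryos at E16 by the sample names and E16.5 by the growth protocol, and neither group carried a transgene. Ipsilateral RGCs were labelled with rhodamine dextran through the cut optic tract of their own side and sorted as living cells after 2 h of dye transport, and they were set against contralateral RGCs labelled and sorted in the same way. Each of 3 rounds pooled the retinas of 2 litters and gave 1 ipsilateral and 1 contralateral array, 6 arrays in all. The RNA was amplified to cDNA before hybridisation, and the authors chose the rounds by quantitative PCR for Zic2, the transcription factor of ipsilateral RGCs. A pool in which fewer cells of a type expressed a gene cannot be told apart from a pool with less of its RNA per cell.

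The cell cycle restriction point rests on these proteins. D-type cyclins with Cdk4 or Cdk6, and E-type cyclins with Cdk2, phosphorylate Rb1, Rbl1 and Rbl2, which releases E2F factors to switch on the genes of DNA synthesis. Ink4 proteins bind and block Cdk4 and Cdk6, whereas Cip/Kip proteins act mainly on cyclin E-Cdk2 and cyclin A-Cdk2. In the developing retina, progenitors leave the cell cycle as they become neurons, and the Cip/Kip inhibitor p27 and the retinoblastoma family take part in that exit.

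None of the 10 genes passed the test between ipsilateral and contralateral RGCs. A call needed a 2-fold difference and an adjusted p under 0.05, from limma with Benjamini-Hochberg adjustment over the 36029 probe sets whose mean level reached log2 4.74. This filter kept 18 of the 19 probe sets and left out Rbl1 1454293_at. Of these 18, 0 were called higher, against 0.244% of all probe sets tested, and 0 were called lower, against 0%. By genes, each read on the probe set with the highest mean, 0 of 10 were called higher, against 0.358% of 15346 genes. The largest differences belonged to E2f1 1417878_at, at 1.43 on the log2 scale (SE 0.50), and Rbl1 1432604_at, at 1.28 (SE 0.50), and both had an unadjusted p under 0.05. These were 2 of the 18 probe sets past 2-fold and that unadjusted threshold, against 2.05% of all tested, and 0 of 18 lay past the same limits on the low side, against 0.239%. Median differences were close to 0, at 0.037 over the 10 genes and −0.013 over all genes tested.

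**Figure D1:**
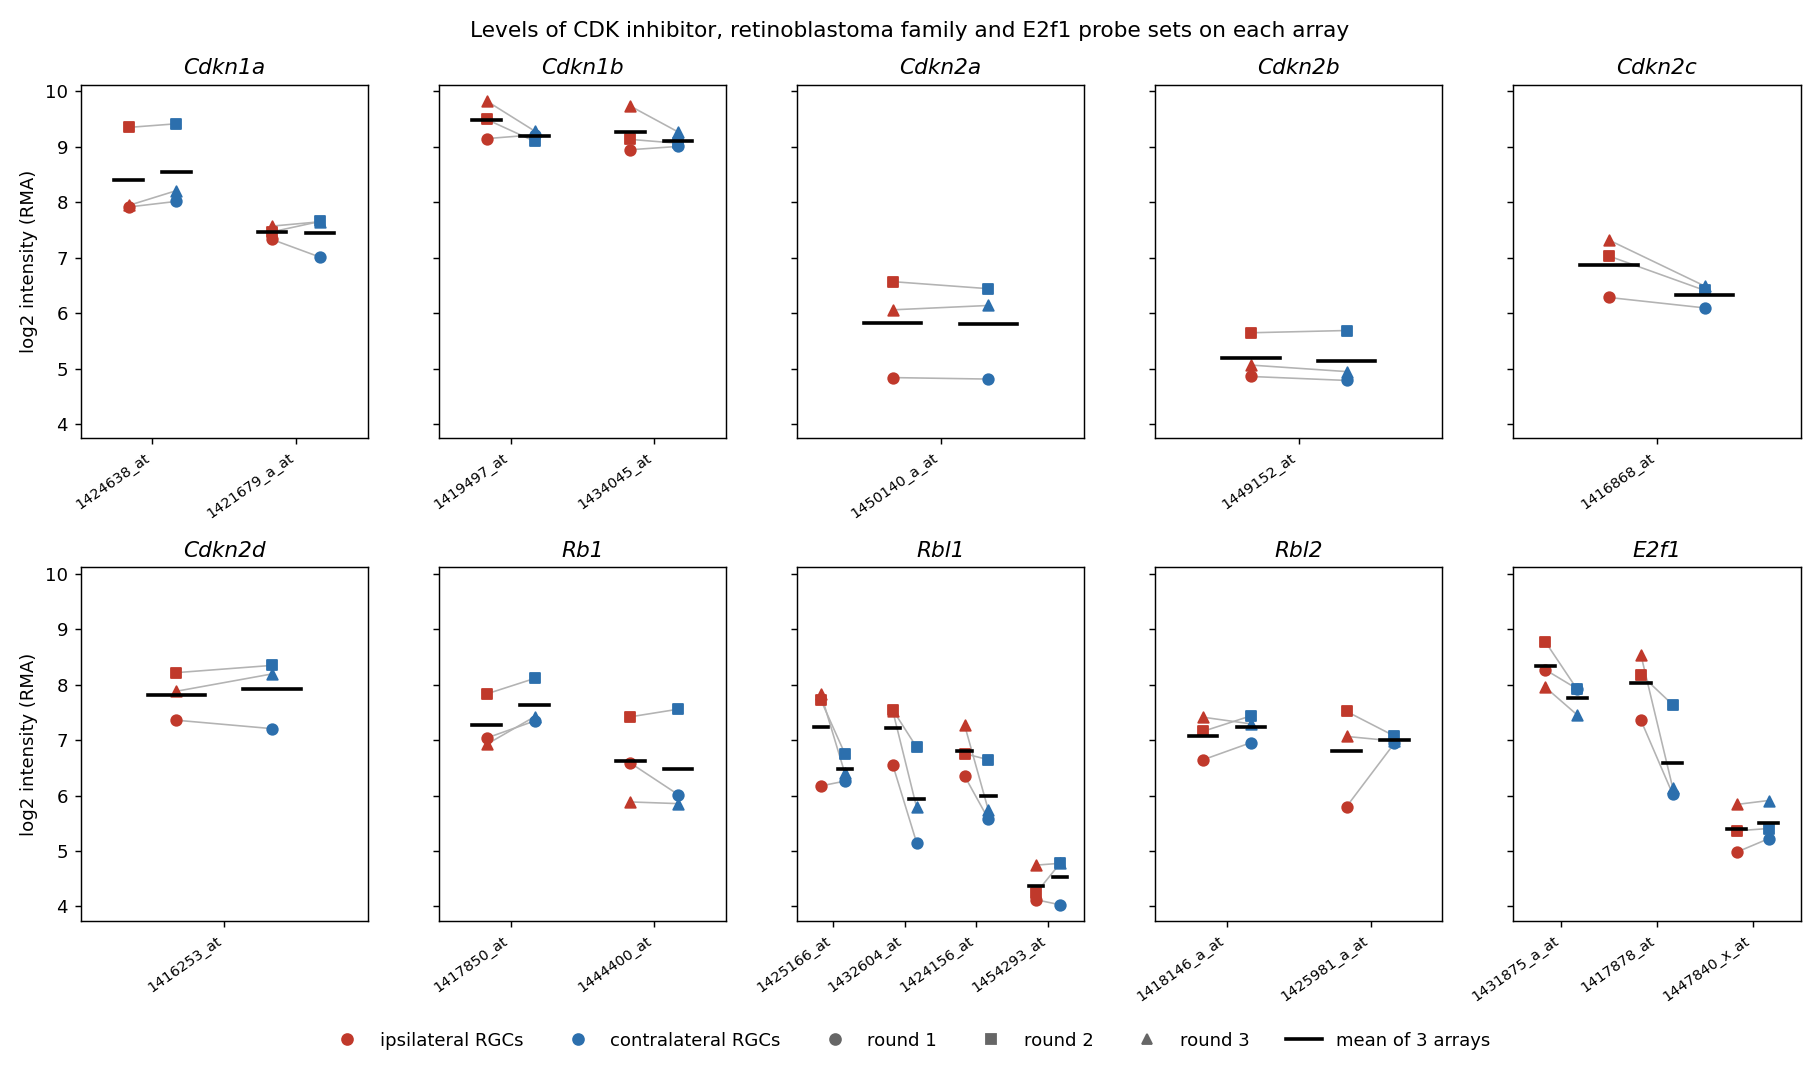
Log2 intensity (vertical axis) of each of the 19 probe sets on the 6 arrays, with ipsilateral RGCs in red at the left of each pair and contralateral RGCs in blue at the right. Grey lines join the 2 arrays of a round, symbols give the round and black bars the mean of 3 arrays. On these values, which are not centred on array medians, only E2f1 1431875_a_at has its 3 ipsilateral arrays above all 3 contralateral arrays.

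Among the Ink4 genes, Cdkn2c was the one that was higher in ipsilateral RGCs in every round. Cdkn2c encodes p18Ink4c, which is made in dividing progenitors of the mouse brain. Its probe set, 1416868_at, had 6.28, 7.03 and 7.32 in ipsilateral RGCs of rounds 1 to 3, against 6.09, 6.41 and 6.49 in contralateral RGCs. The ipsilateral arrays of rounds 2 and 3 lay above all contralateral arrays, and that of round 1 lay among them, so the groups overlapped. The difference was 0.55 (SE 0.42, 95% interval −0.35 to 1.44, limma adjusted p = 1.0). With the round as a block in the same fit, the interval narrowed to 0.10 to 0.99 and the adjusted p was 0.284. After the median of all probe sets on each array was subtracted, the groups no longer overlapped. The values were then 0.47, 0.32 and 0.99 in ipsilateral RGCs, against 0.30, −0.24 and 0.22 in contralateral RGCs.

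Cdkn2d and Cdkn2b showed less difference between the sides than between rounds. Cdkn2d encodes p19Ink4d, which helps to keep neurons out of the cell cycle. Its levels on 1416253_at were 7.36, 8.22 and 7.88 in ipsilateral RGCs, against 7.21, 8.35 and 8.19 in contralateral RGCs. Ipsilateral RGCs were higher in round 1 and contralateral RGCs in rounds 2 and 3, and the difference was −0.097 (SE 0.44, limma adjusted p = 1.0). Cdkn2b encodes p15Ink4b, which answers to TGF-beta in many cells. Its probe set 1449152_at read 4.86, 5.65 and 5.06 in ipsilateral RGCs, against 4.79, 5.69 and 4.95 in contralateral RGCs. Round 2 was the highest on both sides, and the difference was 0.049 (SE 0.42, 95% interval −0.86 to 0.96). With the median of each array subtracted, round 2 was no longer highest in ipsilateral RGCs, at −0.96, −1.06 and −1.27. Contralateral RGCs then had −1.01, −0.97 and −1.32. The mean level of Cdkn2b was at percentile 28.4 of all probe sets, near the filter, and detection above background was not tested.

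Cdkn2a encodes both p16Ink4a and, from an upstream first exon in another reading frame, the p53 activator p19Arf, and its 1 probe set can be assigned to neither. On 1450140_a_at it had 4.84, 6.57 and 6.06 in ipsilateral RGCs, against 4.81, 6.44 and 6.14 in contralateral RGCs. The arrays of a round sat together, with round 1 lowest on both sides, and the difference was 0.025 (SE 0.54, limma adjusted p = 1.0). The mean level was low, at percentile 41.3 of all probe sets, and detection above background was not tested. The range between the mean levels of the rounds was 1.68, the widest of the 19 probe sets. Part of that range was shared by the whole array, since the median of all probe sets was 5.81, 6.70 and 6.33 on the ipsilateral arrays and 5.80, 6.65 and 6.26 on the contralateral arrays. After subtraction of these medians, Cdkn2a read −0.98, −0.14 and −0.27 in ipsilateral RGCs, against −0.99, −0.21 and −0.13 in contralateral RGCs, so round 1 stayed lowest. The 250 bases before the upstream start in RefSeq (GRCm38.p6, chr4:89294620-89294869, minus strand) are shown because E2F factors are known to act on the p19Arf promoter, and the capitals mark the word TTTCCCGC, 99 to 92 bases before the start:
Cdkn2a: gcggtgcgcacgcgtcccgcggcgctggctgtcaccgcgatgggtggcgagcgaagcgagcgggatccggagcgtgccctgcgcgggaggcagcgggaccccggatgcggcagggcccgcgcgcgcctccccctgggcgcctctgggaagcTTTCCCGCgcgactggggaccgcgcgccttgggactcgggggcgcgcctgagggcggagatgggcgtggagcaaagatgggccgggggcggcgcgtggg

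Such E2F words (TTTCCCGC, TTTCGCGC, TTTGCCGC or TTTGGCGC, on both strands) were in 1.86% of 32851 windows of 250 bases before RefSeq starts. The table gave windows for 9 of the 10 genes, 12 windows in all, and an E2F word was in 2 of them, the Cdkn2a window above and that of Rbl1. The cell cycle homology word TTTGAA, searched on both strands, was in 2 of the 12 windows (Cdkn2b and Rbl2), against 16% of all windows. The SP1 box GGGCGG, also searched on both strands, was in 7 of the 12, against 32.7% of all windows, and the 3 sets of words share no bases in the Cdkn2a and Rbl1 windows. The only E2f1 window lay wholly inside the annotated gene, with its start 466 bases downstream of the gene's 5′ end, so the bases before that end were not searched and the lack of an E2F word says nothing of them. Without it the counts were 2 of 11 for the E2F words, 2 of 11 for TTTGAA and 6 of 11 for GGGCGG. A match describes the letters and shows no binding.

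Cdkn1b was higher in ipsilateral RGCs in rounds 2 and 3 on both of its probe sets, and did not pass the test on either. It encodes p27Kip1, whose loss leaves extra rounds of division in the mouse retina. Probe set 1419497_at had 9.15, 9.49 and 9.83 in ipsilateral RGCs, against 9.22, 9.10 and 9.29 in contralateral RGCs. The ipsilateral array of round 1 lay among the contralateral arrays, so the groups overlapped. The difference was 0.29 (SE 0.39, 95% interval −0.55 to 1.13, limma adjusted p = 1.0), and −0.15 to 0.73 was the interval with the round as a block. The second Cdkn1b probe set, 1434045_at, gave the same signs round by round, with 8.95, 9.13 and 9.74 in ipsilateral RGCs, against 9.01, 9.06 and 9.27 in contralateral RGCs, and a difference of 0.16 (SE 0.40).

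The other Cip/Kip gene, Cdkn1a, encodes p21, a p53 target that is induced by DNA damage and stress. Its brighter probe set 1424638_at had 7.91, 9.35 and 7.94 in ipsilateral RGCs, against 8.02, 9.42 and 8.21 in contralateral RGCs. Round 2 was more than 1 log2 unit above the other rounds on both sides. After subtraction of the array medians it stayed highest by less, at 2.10, 2.65 and 1.61 in ipsilateral RGCs. Contralateral RGCs then had 2.22, 2.76 and 1.95. In the deposited values, ipsilateral minus contralateral was below 0 in every round, at −0.10, −0.066 and −0.27. The difference was −0.15 (SE 0.51, 95% interval −1.24 to 0.95, limma adjusted p = 1.0), or −0.50 to 0.21 with the round as a block. Probe set 1421679_a_at did not show the high level in round 2. It had 7.33, 7.47 and 7.57 in ipsilateral RGCs, against 7.01, 7.65 and 7.65 in contralateral RGCs, with a difference of 0.017 (SE 0.39). The 2 probe sets of Cdkn1a therefore differed in their pattern over rounds, and neither separated the sides.

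Rb1, the retinoblastoma protein that restrains E2F1 and its closest relatives, was lower in ipsilateral RGCs in every round on 1 of its 2 probe sets. Probe set 1417850_at had 7.04, 7.83 and 6.92 in ipsilateral RGCs, against 7.35, 8.11 and 7.42 in contralateral RGCs. The ipsilateral array of round 2 was above the contralateral arrays of rounds 1 and 3, so the groups overlapped. The difference was −0.36 (SE 0.43, 95% interval −1.28 to 0.55, limma adjusted p = 1.0). With the round as a block its unadjusted p was 0.0488 and its adjusted p 0.355. The dimmer probe set, 1444400_at, did not repeat this, with 6.59, 7.42 and 5.88 in ipsilateral RGCs, against 6.02, 7.56 and 5.85 in contralateral RGCs. Its difference was 0.15 (SE 0.53), and ipsilateral RGCs were higher in rounds 1 and 3.

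Rbl1 encodes p107, a relative of Rb1 that is most abundant in dividing cells, pairs with the repressive factors E2F4 and E2F5 and is itself an E2F target. All 3 of its tested probe sets had higher means in ipsilateral RGCs, and none passed the test. Probe set 1432604_at had 6.56, 7.55 and 7.53 in ipsilateral RGCs, against 5.15, 6.87 and 5.79 in contralateral RGCs. Ipsilateral RGCs were higher in every round, by 1.41, 0.68 and 1.75, but the ipsilateral array of round 1 was below the contralateral array of round 2. The means were 7.21 ± 0.57 in ipsilateral RGCs and 5.94 ± 0.87 in contralateral RGCs (SD, n = 3 each), a 2.42-fold difference. On the log2 scale its 95% interval was 0.21 to 2.34 (limma adjusted p = 1.0). The round as a block gave an adjusted p of 0.142. After subtraction of the array medians the groups no longer overlapped. The values were then 0.74, 0.84 and 1.20 in ipsilateral RGCs, against −0.65, 0.22 and −0.48 in contralateral RGCs.

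The probe set with the highest mean, 1425166_at, had 6.17, 7.72 and 7.84 in ipsilateral RGCs, against 6.26, 6.76 and 6.40 in contralateral RGCs. Round 1 went the other way here, at −0.087, while rounds 2 and 3 gave 0.97 and 1.43. Its difference was 0.77 (SE 0.48, 95% interval −0.26 to 1.80, limma adjusted p = 1.0). Probe set 1424156_at had 6.36, 6.76 and 7.28 in ipsilateral RGCs, against 5.57, 6.65 and 5.73 in contralateral RGCs. It was higher in ipsilateral RGCs in every round, most in round 3 and least in round 2, with a difference of 0.81 (SE 0.44, limma adjusted p = 1.0). The fourth probe set, 1454293_at, lay under the filter and was not tested. It read 4.12, 4.25 and 4.75 in ipsilateral RGCs, against 4.03, 4.78 and 4.78 in contralateral RGCs, and did not share the direction of the other 3. The 250 bases before the RefSeq start of Rbl1 (GRCm38.p6, chr2:157204535-157204784, minus strand) are shown because this gene had the largest mean difference among the pocket proteins, and the capitals mark the E2F word TTTCGCGC, 18 to 11 bases before the start:
Rbl1: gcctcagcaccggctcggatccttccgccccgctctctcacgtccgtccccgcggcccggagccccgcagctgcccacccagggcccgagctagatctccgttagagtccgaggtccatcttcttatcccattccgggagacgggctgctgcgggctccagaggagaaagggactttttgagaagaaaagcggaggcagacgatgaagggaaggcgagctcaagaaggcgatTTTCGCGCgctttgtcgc

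Rbl2, which encodes p130 and is the family member of resting and differentiated cells, did not pass the test on either of its 2 probe sets. Probe set 1418146_a_at had 6.64, 7.16 and 7.41 in ipsilateral RGCs, against 6.95, 7.44 and 7.29 in contralateral RGCs. The groups overlapped over most of their range, and the difference was −0.16 (SE 0.40, 95% interval −1.02 to 0.71). On 1425981_a_at the values were 5.80, 7.52 and 7.07 in ipsilateral RGCs, against 6.95, 7.07 and 6.98 in contralateral RGCs. The deposited contralateral values were nearly constant at 7.0 ± 0.065 (SD, n = 3), but 1.15, 0.42 and 0.72 after subtraction of the array medians. Ipsilateral minus contralateral was −1.14 in round 1 and 0.44 in round 2. The difference was −0.21 (SE 0.47, limma adjusted p = 1.0).

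E2f1 is the activating E2F that Rb1 holds in check, and it switches on genes of DNA synthesis. Probe set 1417878_at gave the largest difference of the 19, with 7.36, 8.18 and 8.54 in ipsilateral RGCs, against 6.02, 7.63 and 6.13 in contralateral RGCs. Ipsilateral RGCs were higher in every round, by 1.34, 0.54 and 2.41, and the ipsilateral array of round 1 lay under the contralateral array of round 2. The means were 8.02 ± 0.60 in ipsilateral RGCs and 6.59 ± 0.90 in contralateral RGCs (SD, n = 3 each), a 2.69-fold difference. Its 95% interval was 0.35 to 2.51 on the log2 scale (limma adjusted p = 0.986). The adjusted p was 0.208 with the round as a block. With the array medians subtracted the groups no longer overlapped, at 1.54, 1.47 and 2.21 in ipsilateral RGCs. Contralateral RGCs then had 0.22, 0.98 and −0.13.

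The brightest E2f1 probe set, 1431875_a_at, had 8.27, 8.78 and 7.96 in ipsilateral RGCs, against 7.92, 7.92 and 7.46 in contralateral RGCs. It was the 1 probe set of the 18 whose ipsilateral arrays all lay above all contralateral arrays, against 3.26% of all probe sets tested, and 0 of 18 lay below throughout, against 2.03%. An exact two-sided permutation test of 3 against 3 arrays cannot give less than 0.10. The difference was 0.57 (SE 0.41, 95% interval −0.30 to 1.44, limma adjusted p = 1.0). The separation of its arrays holds for the deposited values. After subtraction of the array medians, its ipsilateral array of round 3 (1.63) lay under its contralateral array of round 1 (2.13). Centred in this way, E2f1 1417878_at, Rbl1 1432604_at and 1424156_at, and Cdkn2c had all ipsilateral above all contralateral arrays. The share of all probe sets that did so was not computed. These separations, also given above gene by gene, therefore cannot be set against a rate over the arrays. The third, 1447840_x_at, has probes that can match other transcripts, and it did not share this direction. It read 4.98, 5.36 and 5.84 in ipsilateral RGCs, against 5.22, 5.41 and 5.91 in contralateral RGCs, with round differences of −0.24, −0.042 and −0.071. The study's own list of changed genes holds E2f1 1417878_at and Rbl1 1432604_at and 1425166_at as higher in ipsilateral RGCs. It used a 2-fold and an adjusted p threshold too, in the GeneSpring software, and the main fit here called none of them. For Rbl1 1425166_at the fold itself differs from that of the list, since it was 1.71 in the deposited values, under the 2-fold threshold. That list was drawn from these same arrays, so the direction of E2f1 and Rbl1 here is not independent evidence.

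**Figure D2:**
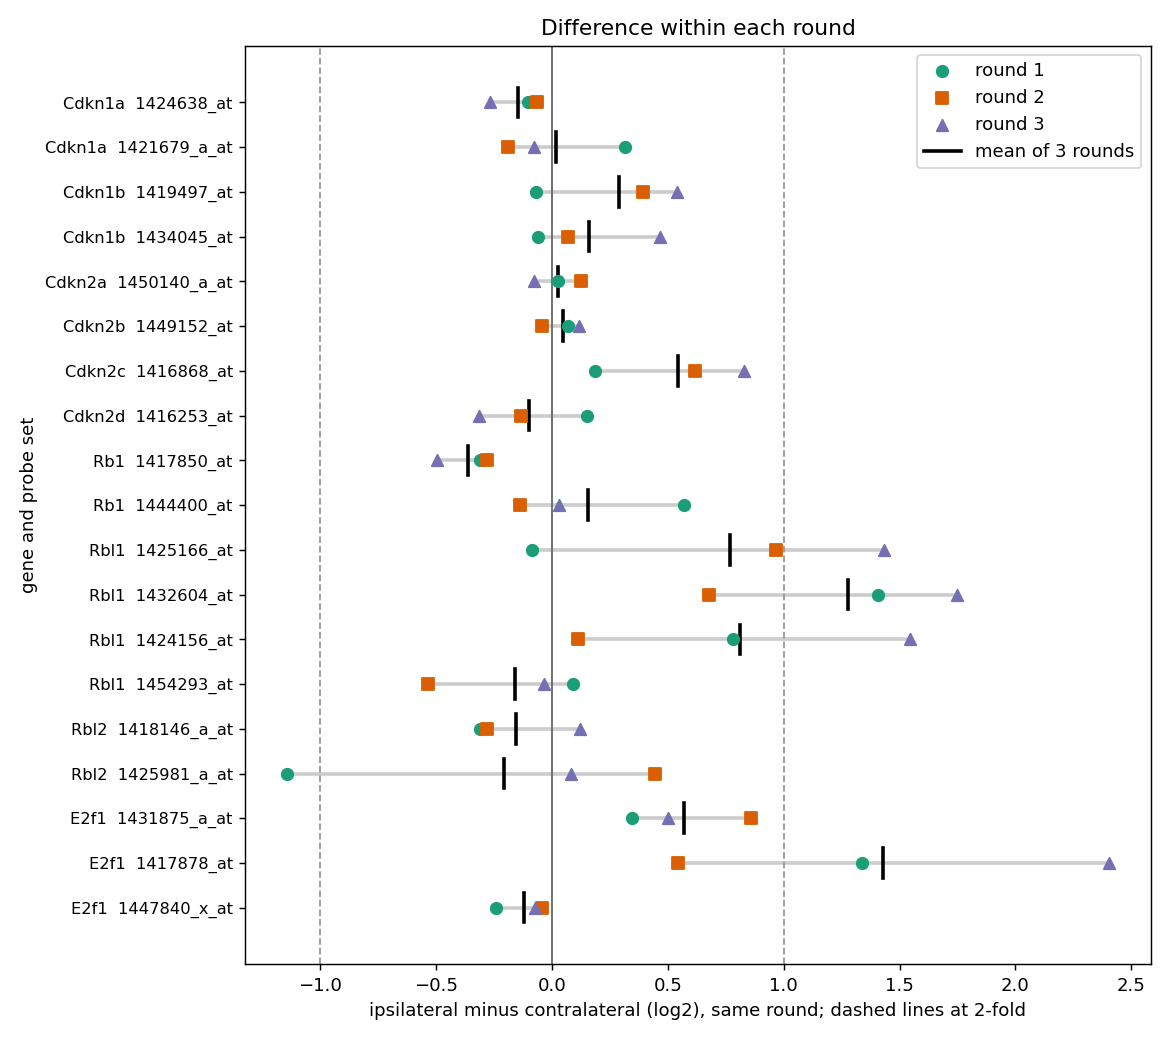
Ipsilateral minus contralateral log2 level within each round (horizontal axis) for the 19 probe sets, with symbols for the rounds and black bars for their mean. E2f1 1417878_at and Rbl1 1432604_at have means of 1.43 and 1.28 to the right of the 2-fold line, while Rbl2 1425981_a_at spans −1.14 to 0.44.

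Taken round by round, 5 of the 18 tested probe sets were higher in ipsilateral RGCs in all 3 rounds, against 16.7% of all probe sets tested, and 3 were lower in all 3 rounds, against 19.7%. The other 10 differed in sign between rounds. The 5 were Cdkn2c, Rbl1 1432604_at and 1424156_at, and E2f1 1417878_at and 1431875_a_at, and the 3 were Cdkn1a 1424638_at, Rb1 1417850_at and E2f1 1447840_x_at. On the brightest probe set, 2 of the 10 genes (Cdkn2c and E2f1) were higher in every round, against 17.6% of all genes, and 2 (Cdkn1a and Rb1) were lower in every round, against 20.2%. The median difference of the 10 genes was −0.021, 0.043 and 0.12 in rounds 1, 2 and 3, and that of all genes was 0.0099, −0.016 and −0.026.

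For most of the probe sets the rounds differed more than the sides. The range of the mean levels of the rounds exceeded the size of the side difference in 17 of 19, and in 14 of 19 after each array was centred on its own median. It was over 1 log2 unit in 6 of 19, and in 1 of 19 after centring. Since the 2 sides of a round went together, the fit with the round as a block had a smaller standard error, with a median of 0.17 over the 18 probe sets, against 0.43 without it. In that fit 7 of the 18 had an unadjusted p under 0.05, against 14% of all probe sets, and 0 of the 18 were called. The 7 were the 5 probe sets that were higher in every round, Rb1 1417850_at and Rbl1 1425166_at. The 95% interval lay within 2-fold in both directions for 2 of the 18 probe sets without the block and for 13 of the 18 with it, so for most of them the unblocked fit left room for a 2-fold difference.

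**Figure D3:**
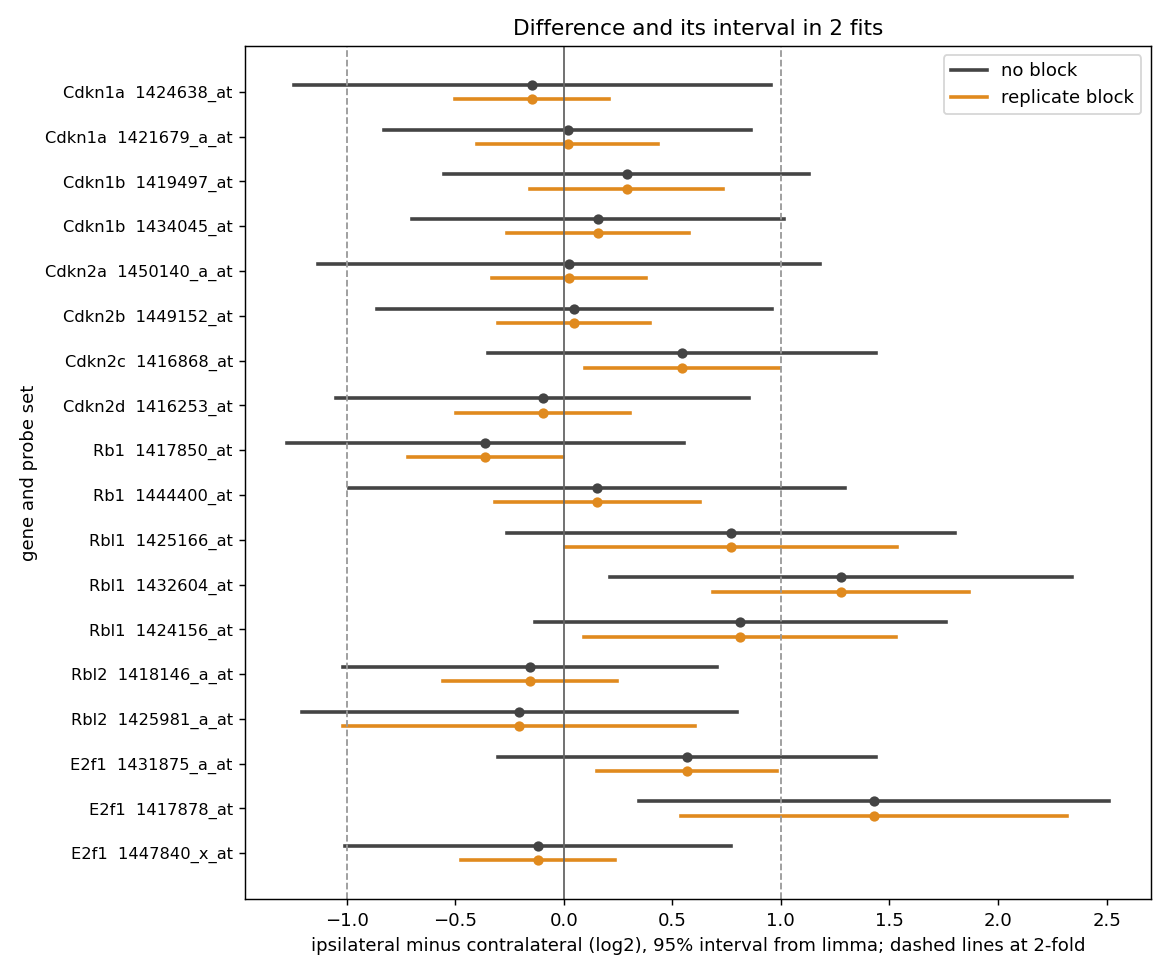
Ipsilateral minus contralateral log2 difference (point) and its 95% interval (line) for the 18 tested probe sets, from limma without a block (dark grey) and with the round as a block (orange). The intervals of E2f1 1417878_at (0.35 to 2.51) and Rbl1 1432604_at (0.21 to 2.34) lie above 0 without the block.

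A fit that lets limma weight each array by how well it follows the others gave a different count. The weights were 0.281, 0.529 and 5.67 for the ipsilateral arrays of rounds 1 to 3, and 0.295, 0.657 and 6.12 for the contralateral arrays, so the values of this fit came mostly from round 3, and the estimation of the weights stopped short of its convergence tolerance. It called 4 of the 18 probe sets higher in ipsilateral RGCs, against 2.78% of all probe sets tested. They were E2f1 1417878_at, at 2.19 with a limma adjusted p of 1.28e-04, and Rbl1 1432604_at, 1424156_at and 1425166_at, at 1.63, 1.39 and 1.32. In the other fits that kept the 2-fold and adjusted p thresholds none of the 18 was called.

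The cyclins and kinases that the inhibitors act on, and the genes that E2F acts on, were described with lists read on the brightest probe set of each gene. Of 9 D and E cyclins and their kinases, 0 were called and 7 were higher in ipsilateral RGCs in every round, with a median difference of 0.33. Ccnd2 (cyclin D2) was at 2.84 (limma adjusted p = 0.160), Cdk6 at 2.03 (adjusted p = 0.0759) and Ccnd1 (cyclin D1) at 1.56 (adjusted p = 0.455). With the round as a block in limma, Ccnd2 passed both thresholds, with an adjusted p of 0.0170. The same fit gave 0.0615 for Cdk6 and 0.188 for Ccnd1. Of 8 tested E2F and DP genes other than E2f1, 0 were called, 6 were higher in every round and the median was 0.59, with E2f8, an atypical repressor E2F, at 1.88 (adjusted p = 0.327). Of 15 E2F target genes of S phase, 0 were called, 11 were higher in every round and the median was 1.14. Among them Rrm2, a ribonucleotide reductase subunit, was at 2.39 (adjusted p = 0.0794), Ccna2 (cyclin A2) at 2.00 (adjusted p = 0.131) and the DNA helicase subunit Mcm3 at 1.92 (adjusted p = 0.204). The median of these 15 was 0.69, 0.97 and 1.78 in rounds 1, 2 and 3, beside 0.35, 0.86 and 0.50 for the brightest E2f1 probe set and −0.087, 0.97 and 1.43 for that of Rbl1. Ccnd2, Cdk6, Ccnd1, Rrm2, Ccna2 and Mcm3, not called by the main fit, are on the study's list of changed genes.

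Lists around the CDK inhibitors had medians nearer to 0. The 7 measured genes of other CDK inhibition and p27 turnover had 0 calls and a median of 0.048, with 2 higher and 2 lower in every round. The third Cip/Kip gene, Cdkn1c (p57), was at −0.43, and Skp2, the ubiquitin ligase subunit that directs p27 to degradation, at 1.24, both with a limma adjusted p of 1.0. Polycomb repressors, which silence the Cdkn2a locus in dividing cells, had 0 of 8 called and a median of 0.19, with Eed at 0.95 and Ezh2 at 0.60. The 6 tested genes of the MuvB complex, through which p107 and p130 repress cell cycle genes, and its partners had 0 calls and a median of 0.16, with the subunit Lin54 at 0.82. Of p53's pathway, 12 genes were tested, 0 were called and the median was 0.033, with Btg2 at 1.0, Gadd45a at 0.68 and Zmat3 at −0.51, beside −0.15 for Cdkn1a. Skp2 and Btg2 are on the study's list of changed genes.

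**Figure D4:**
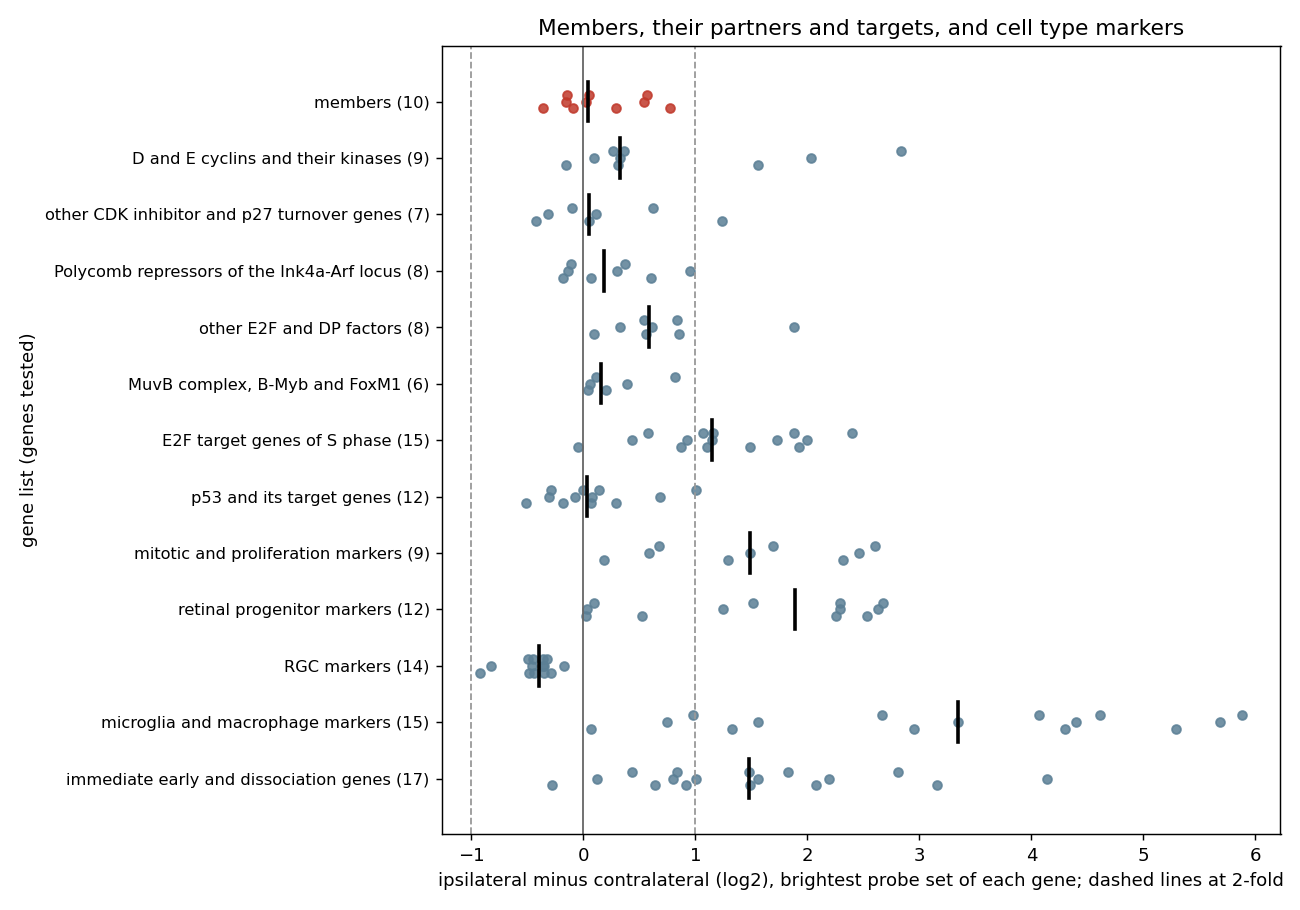
Ipsilateral minus contralateral log2 difference (horizontal axis) of the 10 genes (red, top row) and of genes in each list (blue-grey), 1 point per gene on its brightest probe set, with black bars for medians. The 10 genes have a median of 0.037, E2F targets 1.14, retinal progenitor markers 1.88 and microglia markers 3.35.

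Markers of some other cells moved with the sides on the same arrays. The RGC list was high on both, with a mean level per array of 10.97 to 11.47 in ipsilateral RGCs and 11.38 to 11.88 in contralateral RGCs, and 14 of its 14 genes were lower in ipsilateral RGCs in every round with 0 called. Retinal progenitor markers averaged 8.85 to 9.89 per array in ipsilateral RGCs and 7.74 to 7.91 in contralateral RGCs, with 3 of 12 called higher and a median of 1.88. With the round as a block in limma, none of these 3 passed, with adjusted p of 0.156 (Sox2), 0.0748 (Sox9) and 0.0629 (Sfrp2). Mitotic markers averaged 7.52 to 8.94 in ipsilateral RGCs and 6.46 to 6.84 in contralateral RGCs, with 0 of 9 called and a median of 1.48. Microglia and macrophage markers averaged 8.36 to 9.17 in ipsilateral RGCs and 4.82 to 5.86 in contralateral RGCs, with 9 of 15 called higher and a median of 3.35. Immediate early genes averaged 8.40 to 8.95 in ipsilateral RGCs and 6.67 to 7.82 in contralateral RGCs, with 2 of 17 called higher and a median of 1.48. With the block, P2ry12 of the microglia list no longer passed (limma adjusted p = 0.0675). Fos (0.0490) and Atf3 (0.0412) of the immediate early list then did. Other lists had medians nearer to 0 and 0 calls. These medians were −0.0026 for 5 endothelial and pericyte genes, 0.11 for 4 astrocyte and optic nerve head glia genes and 0.16 for 2 red blood cell genes. The part of other cells and of cell stress in the E2f1, Rbl1 and Cdkn2c values was not tested.

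Genes whose pattern over the 6 arrays was most like that of a member were sought for the 5 genes Cdkn1a, Cdkn1b, Rb1, Rbl1 and E2f1. The measure was the root mean square distance between profiles, each centred on its own mean, among genes whose SD over the arrays was within a factor of 2 of the member's. E2f1 was nearest to Ints13 (0.061 log2 units), Rassf3 and Sgo1, where the median gene compared was at 0.60. Rbl1 was nearest to Kif2c (0.123), 4930579G24Rik and Aldh1a3, where the median was 0.61. For Rb1 the nearest were Marchf1 (0.058), Bmyc and Nyap1. Cdkn1b had Galc (0.039), Tbc1d15 and Lrig3, and Cdkn1a had Irf2bpl (0.051), Panx3 and Gm9946. With 6 arrays in 3 rounds, such nearness is set by the rounds as well as by the sides.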

How the data were processed

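For each probe set the authors deposited a log2 intensity from RMA (background correction, quantile normalization and summary of probes) in Affymetrix Expression Console 1.1, from amplified cDNA. Whether all 6 arrays were normalized together is not given in the sources used here. Of 45101 rows, 64 control probe sets were left out. Gene names came from the platform annotation, which gave 34945 probe sets 1 gene, 932 several and 9160 none, and the symbols were updated by Entrez identifier.

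The test was limma 3.58.1 (R 4.3.3, lmFit and eBayes) on ipsilateral minus contralateral RGCs over all 6 arrays, with a filter at the 20th percentile of the mean level. The 2-fold threshold and the Benjamini-Hochberg adjustment followed the study's methods. The round number pairs the arrays, since the methods state that both sides of a round were treated together. The deviations of same-round arrays from their group means correlated at 0.511, 0.541 and 0.612. Those of different rounds correlated at −0.353 to −0.207, which adds nothing further, since deviations from a mean cancel within each side. The fit with the round as a block was an alternative, as were other filters (none, or the 50th percentile, log2 6.25), scalings, array weights, thresholds and leaving out each array. The code was tested on simulated data with large differences and no shared effect of the round. That test does not show how the fits behave on arrays with round effects or smaller differences. Named genes were all members, up to 3 genes per pathway list with the largest difference, and the 3 genes nearest in pattern. Probe sets of different genes were not compared in level. Members and lists were chosen with earlier results of these data known. Array number limits the precision, and p-values measure the spread between pools.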

Additional observations from a re-analysis of the deposited data

How the results depend on the processing

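Under the replicate block 0 of the 18 probe sets were called (75 of all probe sets tested), so the block changed no call. Array weights called 4 of the 18 higher in ipsilateral RGCs, and 2-fold with an unadjusted p under 0.05 called 2. The other alternatives, each left-out array included, called 0 higher, and every alternative run called 0 lower. With 1 array left out, which leaves its round unpaired, the median difference of the 10 genes ranged from −0.21 (without contralateral round 1) to 0.34 (without ipsilateral round 1).

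Of 249 alternative values of single probe sets, 215 kept their direction and side of the threshold, 4 became calls (all with array weights) and 30 turned sign. The sign turns lay in 10 probe sets, none of which was called under any alternative, while 8 kept their sign throughout, namely Cdkn1b 1419497_at, Cdkn2c, Rb1 1417850_at, the 3 tested Rbl1 probe sets and E2f1 1417878_at and 1431875_a_at. Cdkn1a 1421679_a_at turned to −0.012 with a second quantile normalization, −0.027 with arrays centred on their medians and −0.071 with array weights. Cdkn2a turned to −0.022 with the second quantile normalization, −0.019 with centring and −0.063 with array weights. With array weights Rbl2 1418146_a_at was at 0.067 and 1425981_a_at at 0.058. Leaving out 1 array at a time gave −0.62 to 0.29 for Cdkn1a 1424638_at, −0.20 to 0.13 for Cdkn1a 1421679_a_at, −0.072 to 0.32 for Cdkn1b 1434045_at, −0.47 to 0.52 for Cdkn2a, −0.18 to 0.32 for Cdkn2b and −0.45 to 0.13 for Cdkn2d. The same gave −0.24 to 0.69 for Rb1 1444400_at, −0.33 to 0.058 for Rbl2 1418146_a_at, −0.57 to 0.29 for Rbl2 1425981_a_at and −0.34 to 0.089 for E2f1 1447840_x_at. The 8 that kept their sign also moved in size, to 0.12 to 0.46 for Cdkn1b 1419497_at, 0.32 to 0.84 for Cdkn2c, −0.65 to −0.12 for Rb1 1417850_at, 0.47 to 1.30 for Rbl1 1425166_at, 0.88 to 1.75 for Rbl1 1432604_at, 0.57 to 1.14 for Rbl1 1424156_at, 0.35 to 0.76 for E2f1 1431875_a_at and 1.14 to 1.95 for E2f1 1417878_at. The cause was not tested.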
